A study of Mus musculus with 48 samples.

Results

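Clones carrying the Rpl10 R98S point mutation were compared with clones that had lost 1 or both copies of another large-subunit ribosomal protein gene, without wild type in the test. All clones derive from Ba/F3, a murine line with a pro-B origin whose growth needs interleukin 3, and CRISPR-Cas9 had been used to edit each mutant clone. The members were chosen by genotype as all clones with an edited large-subunit gene, which gave 15 of the 24 clones and 30 of the 48 libraries of the series. Rpl10 R98S, which the labels write on both alleles, was represented by clones A30, A29 and A34. The loss side held 12 clones: heterozygous Rpl5+/- (80, 76 and 68), Rpl11+/- (406, 414 and 22) and Rpl22+/- (13, 16 and 60), and homozygous Rpl22-/- (649, 30 and 776). Growth medium for all 15 clones held 10% serum and interleukin 3 at 1 ng/ml, and cycloheximide, which arrests elongating ribosomes, was given at 0.1 mg/ml for 1 min before lysis. Each lysate was split, and 1 share gave a poly(A)-selected RNA-seq library while the other gave a library of ribosome footprints of 28 to 30 nt, the messenger RNA fragments that ribosomes protect from nuclease. The replicates are clones, and no label says that clones of a genotype were independent edits, so p-values measure the spread between these clones.

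Rpl10 (uL16) is the protein that joins the large subunit last, in the cytoplasm, where its loading is coupled to the release of the last assembly factors. The R98S substitution is known from T-cell acute lymphoblastic leukaemia. Rpl5 and Rpl11 join with the 5S ribosomal RNA in a particle that can also bind Mdm2 and so stabilise p53, and loss of 1 copy of either is known from Diamond-Blackfan anaemia. Rpl22 is a protein of the subunit surface that cells can survive without, and Rpl22l1 is its paralog.

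The RNA libraries held 15128729 to 38258559 counts in Rpl10 R98S and 13029073 to 35141862 in the loss clones, and the footprint libraries 49326207 to 54130337 and 15598994 to 72044439. Between the clones of 1 genotype the median SD was 0.062 on the log2 scale of CPM (the count of a gene relative to its library's scaled total) per gene in Rpl10 R98S RNA and 0.063 to 0.115 in the loss genotypes. In footprints it was 0.135 and 0.125 to 0.188. Of 18 pro-B markers, Ptprc, Cd79b and Spn reached 1 CPM in RNA, while Rag2, Dntt, Il7r and Kit were at or near 0 in both groups. Of these 3, Spn and Ptprc RNA were called lower in Rpl10 R98S (log2 difference -0.47 and -0.51), where 24.7% of all genes were called. Cd79b was not called and lay on the other side of 0. In footprints 0 of the 3 were called. On the loss side 4 clones stood apart. The clone labelled Rpl22-/- 30 had Rpl22 footprints at 1564 CPM beside 278 and 319 in the other two, which is within the 1431 to 1594 of the Rpl22+/- clones. It stays in the comparisons under its label, and without it 1628 genes in RNA (2483 with it) and 332 in footprints (646 with it) were called against Rpl22-/-. A further 3 clones had a chromosome whose genes lay together off the other clones by at least 0.1 (log2): 0.15 for chromosome 1 in Rpl22+/- 60, 0.12 for chromosome 4 in Rpl11+/- 406, and -0.29 for chromosome 13 in Rpl11+/- 22. In Rpl10 R98S all 60 such chromosome medians were within -0.02 to 0.03.

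The edited genes were read first. Rpl10 RNA was at 1751 to 1892 CPM in Rpl10 R98S and at 2029 to 2473 in the loss clones, with no overlap (log2 difference -0.29, SE 0.03, adjusted p 3.67e-05 by edgeR's quasi-likelihood test with Benjamini-Hochberg adjustment). Wild-type clones, shown here and hereafter as a reference outside the test, were at 1887 to 1982 CPM. The point mutation itself cannot be seen in gene counts. Rpl10 footprints were low in every library beside its RNA, at 1.77 to 5.55 CPM in Rpl10 R98S (100 to 270 counts a library) and 3.31 to 15.6 in the loss clones (126 to 610 counts), and were not called (log2 difference -0.81, SE 0.33, adjusted p 0.18). How the counting treated footprints shared with near-identical genes is not given in the sources used here. Rpl5 RNA was at 2346 to 2425 CPM in Rpl10 R98S and 1524 to 1583 in Rpl5+/-, and Rpl11 RNA at 1833 to 1840 and 1008 to 1150 in Rpl11+/-. Rpl22 RNA was at 968 to 1016 CPM in Rpl10 R98S, 665 to 714 in Rpl22+/- and 509 to 728 in Rpl22-/-. Each edited gene of a loss genotype was thus lower there than in any Rpl10 R98S clone. The difference of Rpl22 RNA from the mean of the 4 genotypes was 0.17 (adjusted p 0.0822). It was -0.25 (adjusted p 0.0332) when only Rpl5+/- and Rpl11+/- were averaged, where Rpl22 was at 1136 to 1226 CPM. Footprints of Rpl22l1 were higher in Rpl10 R98S (553 to 618 CPM against 315 to 644, log2 difference 0.49, adjusted p 0.0171). That call was lost without any 1 of the Rpl10 R98S clones and without the 4 loss clones that stood apart. It was also lost against both Rpl22 genotypes only and with the loss clones as 1 group.

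Against the mean of the 4 loss genotypes, 3091 of 12493 genes differed in RNA at an adjusted p under 0.05 (24.7%). Of these, 1628 were higher in Rpl10 R98S (13%) and 1463 lower (11.7%), and in 1432 (11.5%) the 3 Rpl10 R98S clones also lay outside the range of all 12 loss clones. Most differences were small: 230 of the called genes differed at least 2-fold, of which 93 were higher. In footprints 812 of 15369 genes were called (5.28%), 384 higher (2.5%) and 428 lower (2.78%), of which 482 did not overlap (3.14%). Here 205 differed at least 2-fold, of which 73 were higher. The footprint-to-RNA ratio, or translational efficiency, was called in 256 of 11735 genes (2.18%), 87 higher (0.741%) and 169 lower (1.44%), of which 168 did not overlap (1.43%). In bulk samples fewer cells of a type and less RNA per cell cannot be told apart. Without clone A29 or A30 the RNA count was 1663 and 1754. The footprint count was 293, 314 and 291 without A29, A30 and A34, and the efficiency count 124, 105 and 95. Without the 4 loss clones that stood apart the counts were 4081, 773 and 349.

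The 4 comparisons with single loss genotypes share the Rpl10 R98S clones. In RNA, 2290 genes were called against Rpl5+/- (18.3% of those tested), 1932 against Rpl11+/- (15.5%), 2556 against Rpl22+/- (20.5%) and 2483 against Rpl22-/- (19.9%). In footprints the counts were 262 (1.7%), 250 (1.63%), 701 (4.56%) and 646 (4.2%), and in efficiency 79 (0.673%), 52 (0.443%), 211 (1.8%) and 248 (2.11%). Fitting only the 2 genotypes compared gave 3732 RNA genes against Rpl5+/- and 896 against Rpl11+/-. In footprints that fit gave 40 against Rpl11+/-, 453 against Rpl22+/- and 1477 against Rpl22-/-. The order of the 4 loss genotypes by number of called genes therefore moved with the samples in the fit. Leaving out 1 clone gave RNA counts of 1219 (A29) to 1597 (A34) against Rpl5+/-, 1033 (A29) to 2489 (Rpl11+/- 414) against Rpl11+/-, 1503 (A30) to 1961 (Rpl22+/- 60) against Rpl22+/- and 1398 (A29) to 1816 (Rpl22-/- 649) against Rpl22-/-. The same gave 71 (Rpl5+/- 76) to 162, 38 (A34) to 185, 234 (A29) to 876 and 252 (A30) to 376 in footprints, and 17 (Rpl5+/- 76) to 70, 22 (A34) to 52, 92 (Rpl22+/- 13) to 490 (Rpl22+/- 16) and 81 (Rpl22-/- 776) to 176 in efficiency.

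Genes called at both levels mostly had the same sign. Of 11735 genes tested at both levels, 465 were called at both, 15.4% of the RNA calls and 61.3% of the footprint calls, and 447 of them had the same sign. Of the 169 genes with lower efficiency, 66 were called higher in RNA and 25 lower, while 101 were called lower in footprints. Of the 87 with higher efficiency, 73 were called higher in footprints, while RNA was called higher in 16 and lower in 16. Both efficiency groups were thus called more often in footprints than in RNA, and the ratio and its parts come from the same counts, so these numbers are a description.

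**Figure D1:**
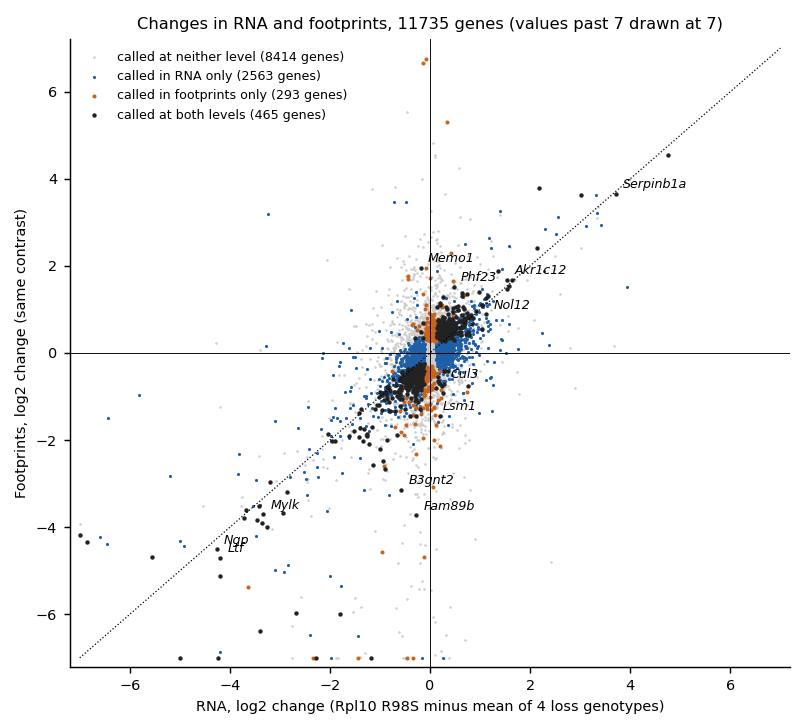
Log2 difference of Rpl10 R98S from the mean of the 4 loss genotypes in RNA (x axis) and in footprints (y axis) for 11735 genes, 1 point each, coloured by the level at which the gene was called. The 447 genes called at both levels with 1 sign lie at the lower left and upper right. Some of them, such as Phf23 and B3gnt2, are far from the diagonal. Memo1, at -0.18 in RNA and 1.96 in footprints, is among the 18 genes called at both levels with opposite signs.

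Genes of granulocytes and other myeloid cells were lower in Rpl10 R98S. Ngp, which encodes neutrophilic granule protein, had 1.06, 2.31 and 1.48 CPM of RNA in clones A30, A29 and A34, while the 12 loss clones ranged from 5.70 to 91.6 with a median of 32.5. All Rpl10 R98S clones were below all loss clones, and the loss clones themselves spread widely within each genotype, from 5.70 to 45.9 within Rpl11+/- for example. The log2 difference was -4.26 (SE 1.09, adjusted p 0.0175, edgeR). Ngp footprints were at 2.35 to 6.40 CPM against 17.99 to 262 (log2 difference -4.51, adjusted p 0.024). Ltf, which encodes lactoferrin of the same secondary granules, was at 0.593, 0.792 and 0.838 CPM against 2.24 to 44.7, median 15.3 (log2 difference -4.19, SE 1.08, adjusted p 0.0175). Wild-type clones were as widely spread, with Ngp at 3.20 to 40.5 CPM and Ltf at 1.28 to 16.7. The calls of Ngp and Ltf were lost at both levels without any 1 of the 3 Rpl10 R98S clones and under limma voom, with the log2 difference of Ngp RNA between -4.67 and -3.88 over all settings.

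Promoter windows of Ngp and Ltf are shown because both genes moved together at RNA and footprint level and lie on the same chromosome. The letters are the 250 bases before each transcription start in the RefSeq annotation of GRCm38.p6, both on the plus strand, at chr9:110419558-110419807 for Ngp and chr9:111019042-111019291 for Ltf. Capitals mark the letters TTGCNNAA, a core of the kind bound by C/EBP factors, searched on both strands (TTNNGCAA on the printed strand is the same letters on the other one).
Ngp: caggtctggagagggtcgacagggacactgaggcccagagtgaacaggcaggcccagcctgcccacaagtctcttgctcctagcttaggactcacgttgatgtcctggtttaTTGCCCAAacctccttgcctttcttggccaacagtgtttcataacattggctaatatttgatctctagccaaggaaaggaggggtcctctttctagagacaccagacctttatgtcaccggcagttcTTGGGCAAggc
Ltf: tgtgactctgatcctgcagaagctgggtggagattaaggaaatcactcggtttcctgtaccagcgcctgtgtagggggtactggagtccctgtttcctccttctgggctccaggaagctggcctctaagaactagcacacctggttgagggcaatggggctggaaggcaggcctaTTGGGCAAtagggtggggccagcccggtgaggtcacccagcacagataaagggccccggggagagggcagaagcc
In the Ngp window the motif began at -138 and -11 from the start, and in the Ltf window at -75. Of the 12 genes named for the largest drop in RNA, 4 held these letters in a window (Clec12a, Ltf, Ngp and S100a9), and of the 9 named genes with higher RNA that have a window, 2 did (H2bc6 and Slfn2). Of all 32851 windows of this length, 9.56% did, a share counted per window while the named genes are counted per gene. A match is a description of letters only.

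S100a9 and S100a8, the 2 chains of calprotectin, were at 2.55 to 5.78 and 2.09 to 4.20 CPM in Rpl10 R98S RNA against 9.31 to 191 and 4.26 to 121 in the loss clones (log2 difference -3.68 and -3.45, adjusted p 0.0169 and 0.0299). Their RNA calls too were lost without A29, A30 or A34. Ccl6, a myeloid chemokine, was at 1.03 to 1.87 CPM against 5.23 to 68.6 (-3.72, adjusted p 0.00693). Cd33, a sialic acid-binding receptor of myeloid cells, was at 0.335 to 0.902 against 1.28 to 18.6 CPM (-3.40), and Fcgr2b, the inhibitory receptor for immunoglobulin G, at 0.482 to 0.618 against 1.05 to 12.2 (-3.26). Both calls were lost without A29 and without A30. Epx, eosinophil peroxidase, had 3 to 8 counts in Rpl10 R98S libraries and 5 to 747 in loss libraries, and the inhibitory lectin receptor Clec12a 0 to 5 against 16 to 129. Anxa3, an annexin of neutrophils, had 0 or 1 RNA count against 2 to 277, and Thbs1, the secreted matrix protein thrombospondin 1, 0 in each Rpl10 R98S library against 3 to 43. These low genes were high in some loss clones and at or near 0 in all Rpl10 R98S clones.

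Mylk, Emp1, Lyz2 and Bcl2a1b had lower RNA in Rpl10 R98S whichever clone or setting was left out or changed. Mylk, which encodes myosin light chain kinase, was at 1.06, 0.792 and 0.902 CPM in A30, A29 and A34 against 3.53 to 14.5 in the loss clones, median 8.51. Its log2 difference was -3.34 in RNA (SE 0.54, adjusted p 0.00131) and -3.70 in footprints (SE 0.52, adjusted p 0.00146). Emp1, epithelial membrane protein 1, was at 0.654 to 1.48 CPM against 4.58 to 18.9 (log2 difference -3.48, SE 0.44, adjusted p 0.000237). Lyz2, lysozyme of phagocytes, was at 0.438 to 0.838 CPM, below every loss clone, whose lowest was at 1.09 and median at 4.06 (-2.85, SE 0.51, adjusted p 0.00178), and Bcl2a1b, an anti-apoptotic member of the Bcl2 family, at 1.27 to 1.95 against 4.18 to 35.5 (-3.20, SE 0.55, adjusted p 0.00226). Each of these RNA calls held in all 24 settings. Mylk, Emp1, Ccl6 and Clec12a were the 4 of 12 named genes with lower RNA that were called against each of the 4 genotypes on its own. For Mylk these 4 log2 differences were -3.45 (Rpl5+/-), -3.52 (Rpl11+/-), -3.28 (Rpl22+/-) and -3.09 (Rpl22-/-). Bcl2a1b shares sequence with Bcl2a1a and Bcl2a1d, so reads can be divided between them: Bcl2a1a had 1 to 18 RNA counts in Rpl10 R98S against 18 to 421, and no footprint count in any Rpl10 R98S library.

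As a list, 8 of the 9 neutrophil and monocyte markers tested were called lower in RNA and 0 higher, where 24.7% of all genes were called, with a median log2 difference of -2.67 beside 0.00 for all genes. In footprints 5 of 10 were lower (50%, against 5.28% of all genes). Without any 1 of the Rpl10 R98S clones the count was 2 in RNA and 2 in footprints, and by limma voom it was 3 and 2. The list is not independent of the genes above, since it holds S100a8, S100a9 and Lyz2. Only 4 of its members averaged at least 1 CPM in Rpl10 R98S RNA (Prtn3, S100a8, S100a9 and Cebpe). Mpo, at 1 to 10 counts there, and Ms4a3, at 2 to 4, passed the filter on low counts through the loss clones. Such members could hardly be called higher, so the direction of the count is a description only. The summed level of its 14 genes was 50.7 to 56.4 CPM in Rpl10 R98S RNA, 80.0 to 430 in the loss clones and 70.7 to 179 in wild type, and in footprints 36.8 to 42.8, 106 to 791 and 65.7 to 230. Cebpa and Ly6c2 were at 0 in both groups in RNA. Prtn3, proteinase 3, was the marker with an even difference, at 17.6 to 22.1 CPM against 25.8 to 47.7 (log2 difference -0.83, SE 0.18, adjusted p 0.00676), and Mpo, myeloperoxidase, was at 0.0258 to 0.344 against 0.182 to 7.29. Of the mast cell and basophil markers, Cpa3, a mast cell protease, and Gata2, a transcription factor, were expressed, and neither was called in RNA (log2 difference -0.88 and -0.03, adjusted p 0.205 and 0.795). The sum of the 9 mast cell and basophil markers was 450 to 461 CPM against 353 to 600. The part of a changing share of myeloid-like cells in these differences was not tested.

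**Figure D2:**
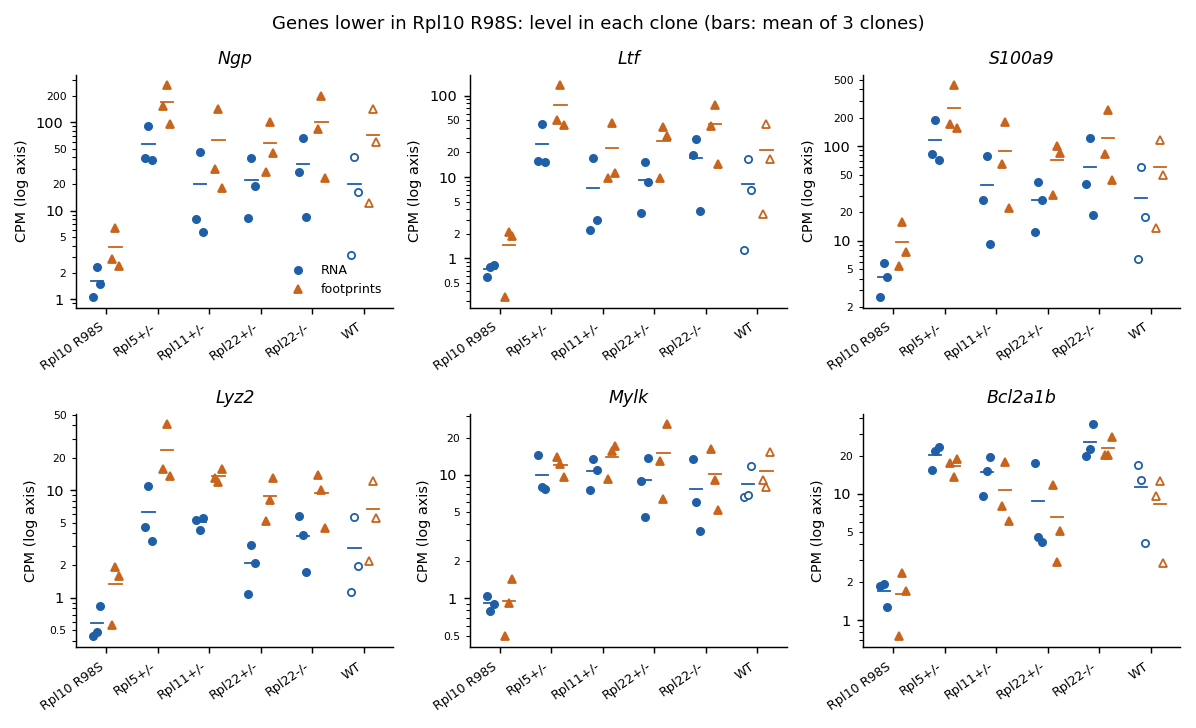
CPM on a log axis of 6 genes with lower levels in Rpl10 R98S, 1 point per clone (circles RNA, triangles footprints, bars the mean of 3 clones), with wild type drawn open as a reference. For Ngp the 3 Rpl10 R98S clones sit at 1.06 to 2.31 CPM of RNA, below every loss clone, while the loss clones spread from 5.70 to 91.6; for Mylk the groups are apart and each is narrower.

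Among genes with higher RNA, Nol12 differed most firmly. Nol12 (ENSMUSG00000033099) encodes a nucleolar RNA-binding protein needed for ribosomal RNA processing. It was at 97.1, 95.2 and 91.7 CPM in A30, A29 and A34 and at 36.2 to 50.1 in the 12 loss clones, median 43.6, with wild type at 37.2 to 42.8. No loss clone came near the Rpl10 R98S clones. The log2 difference was 1.12 (SE 0.05, adjusted p 3.11e-09), and it was 1.07, 1.06, 1.26 and 1.10 against Rpl5+/-, Rpl11+/-, Rpl22+/- and Rpl22-/-. Nol12 footprints were at 29.1 to 37.4 CPM against 14.3 to 29.8 (log2 difference 0.89, SE 0.15, adjusted p 0.00429), with 1 loss clone, Rpl22+/- 60, inside the Rpl10 R98S range. Its efficiency was not called (-0.21, adjusted p 0.688).

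Akr1c12 and Akr1c13, which encode aldo-keto reductases that reduce steroids and other carbonyls, lie in the same region of chromosome 13. Akr1c12 RNA was at 388, 408 and 195 CPM in A30, A29 and A34 and at 88.8 to 168 in the loss clones. Clone A34 was thus closer to the highest loss clone than to the other Rpl10 R98S clones. The log2 difference of Akr1c12 was 1.54 in RNA (SE 0.19, adjusted p 0.00029) and 1.68 in footprints (adjusted p 0.000972). Akr1c13 was at 394, 397 and 182 CPM against 85.1 to 165 (1.54 in RNA, 1.48 in footprints). All these calls held in every setting tried, including those without Rpl11+/- 22. The 2 genes are near-identical copies, so reads can be divided between them and their values are not independent. Their promoter windows are shown for that likeness: capitals mark the bases that differ when the windows are aligned, and 235 of 247 aligned columns (95.1%) are identical. Both are 250 bases before a RefSeq start on GRCm38.p6, at chr13:4279400-4279649 on the minus strand for Akr1c12 and chr13:4190937-4191186 on the plus strand for Akr1c13, each printed in the direction of its gene. The annotated span of Akr1c13 begins within the last bases of its window.
Akr1c12: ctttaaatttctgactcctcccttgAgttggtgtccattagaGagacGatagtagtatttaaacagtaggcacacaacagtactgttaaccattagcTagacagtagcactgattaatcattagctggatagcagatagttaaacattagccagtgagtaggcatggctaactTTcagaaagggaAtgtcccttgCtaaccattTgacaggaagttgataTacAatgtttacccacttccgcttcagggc
Akr1c13: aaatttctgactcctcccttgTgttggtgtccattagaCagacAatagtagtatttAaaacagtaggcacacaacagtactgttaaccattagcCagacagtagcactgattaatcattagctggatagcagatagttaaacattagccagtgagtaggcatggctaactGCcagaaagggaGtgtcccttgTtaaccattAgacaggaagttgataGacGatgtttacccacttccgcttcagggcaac

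Serpinb1a, an inhibitor of the serine proteases of neutrophil granules, was at 13.1, 14.7 and 16.6 CPM in A30, A29 and A34. In the loss clones it ranged from 0.181 to 5.77 with a median of 0.755. Its log2 difference was 3.71 in RNA (SE 0.56, adjusted p 0.000933) and 3.66 in footprints (SE 0.46, adjusted p 0.00109). Against single genotypes the RNA difference ran from 2.59 (Rpl11+/-, adjusted p 0.0544) to 5.56 (Rpl22-/-, adjusted p 0.00453). Serpinb1a was thus higher in Rpl10 R98S, while Prtn3, a protease of the class it inhibits, was lower. Slfn2, a schlafen protein that keeps resting lymphocytes quiescent, was at 40.4 to 54.0 CPM against 7.89 to 36.5 (log2 difference 1.59, SE 0.31, adjusted p 0.00409), with wild type at 24.5 to 39.1, overlapping the loss clones. Cxxc1, the CpG-binding subunit of a histone H3 lysine 4 methyltransferase, was at 96.7 to 104 CPM against 42.3 to 75.7 (1.04, SE 0.10, adjusted p 1.45e-05). Depdc7, a DEP domain protein, was at 27.0 to 38.8 CPM against 12.8 to 21.5 (0.97, SE 0.12, adjusted p 8.22e-05) and higher in footprints too (1.39, SE 0.12).

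The other named genes with higher RNA were Pik3r3, a regulatory subunit of phosphoinositide 3-kinase (1.05), Car13, a carbonic anhydrase (1.04, a call lost without A30), Cyb5rl (0.98), and the histone genes H2bc6 (1.27) and H4c9 (1.12). Messenger RNAs of replication-dependent histones mostly lack a poly(A) tail, so poly(A) selection captures few of them: H2bc6 RNA was at 3.52 to 4.48 CPM beside footprints at 410 to 555. Serpinb1a, both Akr1c genes and both histone genes lie on chromosome 13, the chromosome that was low in Rpl11+/- 22, and their RNA calls held without that clone. Of the 12 named genes with higher RNA, 8 were called against each loss genotype on its own (Akr1c12, Akr1c13, Cxxc1, Cyb5rl, Depdc7, H2bc6, H4c9 and Nol12). In 11 of the 12 the wild-type mean lay within the range of the loss clones.

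**Figure D3:**
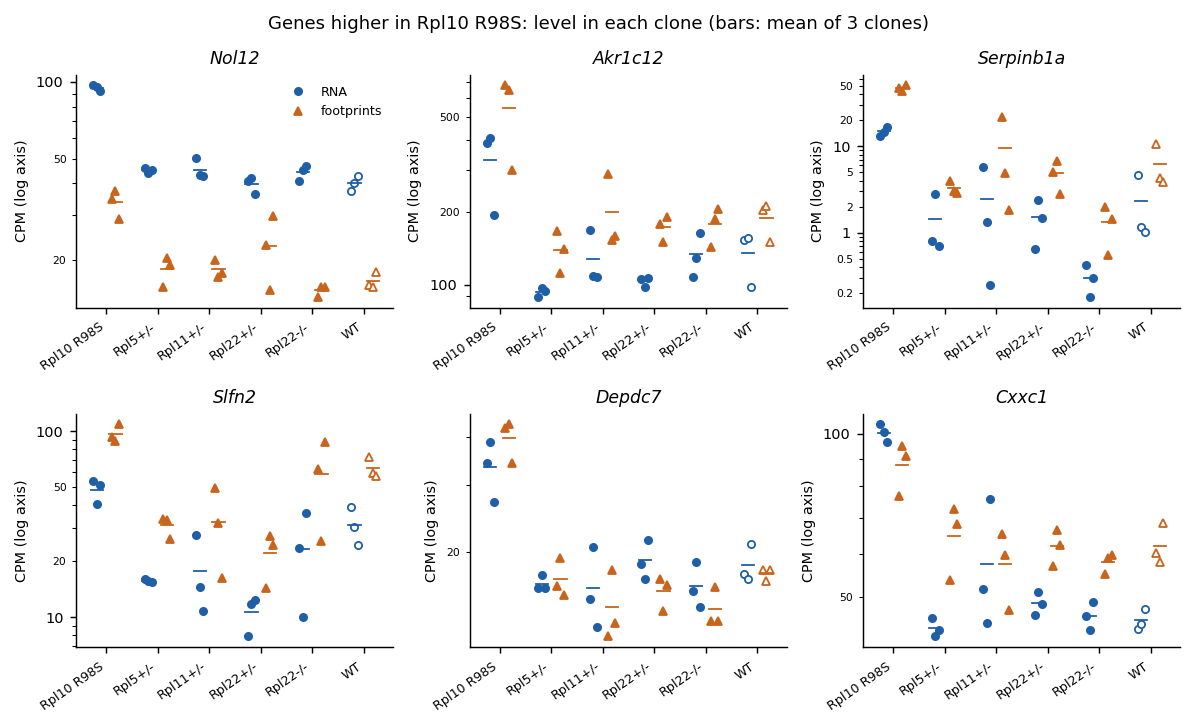
CPM on a log axis of 6 genes with higher RNA in Rpl10 R98S, 1 point per clone (circles RNA, triangles footprints, bars the mean of 3 clones), with wild type drawn open as a reference. Nol12 RNA is at 91.7 to 97.1 CPM in Rpl10 R98S and at 36.2 to 50.1 in the loss clones, while for Akr1c12 the clone A34 sits at 195, closer to the loss clones than the other 2.

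In footprints, and in the footprint-to-RNA ratio, Memo1 stood out. Memo1 (ENSMUSG00000058704, chr17:74186764-74295682 on GRCm38.p6) encodes a metal-binding protein known from cell migration downstream of ErbB2. Its footprints were at 315, 299 and 332 CPM in A30, A29 and A34. In the loss clones they were at 66.6 to 104, median 79.4, and in wild type at 79.4 to 84.1. Its RNA was slightly lower in Rpl10 R98S, at 78.1 to 82.1 CPM against 85.0 to 94.9 (log2 difference -0.18, SE 0.04, adjusted p 0.00236). Footprints thus differed by a log2 value of 1.96 (SE 0.09, adjusted p 3.71e-08) and efficiency by 2.16 (SE 0.10, adjusted p 2.9e-13). Against Rpl5+/-, Rpl11+/-, Rpl22+/- and Rpl22-/- the efficiency difference was 2.13, 2.06, 2.37 and 2.07. The efficiency of the 3 Rpl10 R98S clones, as log2 footprint CPM minus log2 RNA CPM, was 1.87 to 2.09, and that of the 12 loss clones -0.43 to 0.15. Gene counts do not show where on the transcript the footprints lay.

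Phf23 (ENSMUSG00000018572), a PHD-finger protein that binds methylated histone H3, was higher at all 3 levels. Its footprints were at 91.7, 99.7 and 91.5 CPM in A30, A29 and A34 against 24.9 to 41.8, and its RNA at 58.6 to 63.4 against 38.6 to 50.7. The log2 difference was 1.52 in footprints (SE 0.09, adjusted p 4.16e-07), 0.47 in RNA (SE 0.06) and 1.07 in efficiency (SE 0.11, adjusted p 1.56e-06). Ebna1bp2, a nucleolar factor of large-subunit assembly, was at 307 to 382 CPM of footprints against 103 to 174 (1.38, SE 0.09, adjusted p 2.69e-06), with RNA 0.65 and efficiency 0.74 higher. Gpatch4, a nucleolar G-patch protein, was higher in footprints (1.28, SE 0.18, adjusted p 0.00127) at 26.6 to 61.0 CPM, above every loss clone, whose median was 17.3. Its efficiency call (1.02) was lost without A29, without A34 and without the 4 loss clones that stood apart. AC165962.4 had footprints at 48.8 to 53.9 CPM against 0.0779 to 18.2, while its RNA was at 0 counts in every Rpl10 R98S library and in 10 of the 12 loss libraries. Its footprint call was lost without any 1 of the Rpl10 R98S clones. The footprint genes called against each of the 4 genotypes were 7 of the 10 named as higher (Akr1c12, Akr1c13, Depdc7, Ebna1bp2, Gpatch4, Memo1 and Phf23) and 4 of the 10 named as lower (Ccl6, Fam89b, Fcgr2b and Mylk).

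Other genes had more footprints while their RNA was not called. Tmed10, a cargo receptor of early secretory vesicles, had footprints at 168, 173 and 171 CPM in A30, A29 and A34 against 86.2 to 126, with RNA at 250 to 259 against 244 to 294. Its efficiency was higher by 0.86 (SE 0.10, adjusted p 9.82e-06). Nudt4, a diphosphoinositol polyphosphate phosphatase, was higher in efficiency by 0.86 (SE 0.15, adjusted p 0.00114). Memo1, Phf23, Tmed10 and Nudt4 were called in efficiency in all 25 settings tried. BC005537 (1.13), Rpl14 (1.20) and Rps18 (0.94) were also named for higher efficiency, and Rpl14 and Rps18 lost the call without A34.

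Genes with lower efficiency included Lsm1, a subunit of the cytoplasmic Lsm ring that promotes decapping of messenger RNA. Its footprints were at 32.7, 27.7 and 24.4 CPM in A30, A29 and A34 against 49.6 to 110 in the loss clones, with RNA at 51.8 to 53.4 against 44.2 to 54.3. The log2 difference was -1.43 in footprints (SE 0.19, adjusted p 0.00114) and -1.52 in efficiency (SE 0.19, adjusted p 3.47e-05), while RNA was not called (0.10, adjusted p 0.192). Tmem181a, a transmembrane protein, was lower in efficiency by a log2 value of -1.76 (SE 0.27, adjusted p 0.000438), with footprints at 9.53 to 13.4 CPM against 14.3 to 65.9. B3gnt2, which builds polylactosamine chains, had footprints at 0.0963 to 2.14 CPM against 5.78 to 15.3 and RNA at 48.7 to 57.5 against 61.2 to 93.0 (efficiency -2.57, SE 0.46, adjusted p 0.00258). Fam89b had footprints at 0.287 to 0.994 CPM against 2.62 to 20.3, and its call was lost by limma voom and with all 24 clones in the fit. Few footprints stand behind B3gnt2 and Fam89b in Rpl10 R98S, which limits the size of those differences.

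The other genes named for lower efficiency were AV099323 (-2.10), H4c9 (-1.71), H2bc6 (-1.49) and Ptp4a3, a protein tyrosine phosphatase (-1.22). The call of Ptp4a3 was lost without any 1 of the Rpl10 R98S clones, and that of H4c9 without A29. In both histone genes the footprints were not called (H2bc6 at 410 to 555 CPM against 369 to 705, log2 difference -0.21, adjusted p 0.485) and the small poly(A)-selected RNA signal was higher. The ratio there is taken against RNA that the selection mostly leaves out, and the part of poly(A) capture in it was not tested. Fam89b, Lsm1 and Tmem181a were the 3 of 8 called against each loss genotype on its own. For Lsm1 these differences were -1.26 (Rpl5+/-), -1.56 (Rpl11+/-), -1.81 (Rpl22+/-) and -1.46 (Rpl22-/-).

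**Figure D4:**
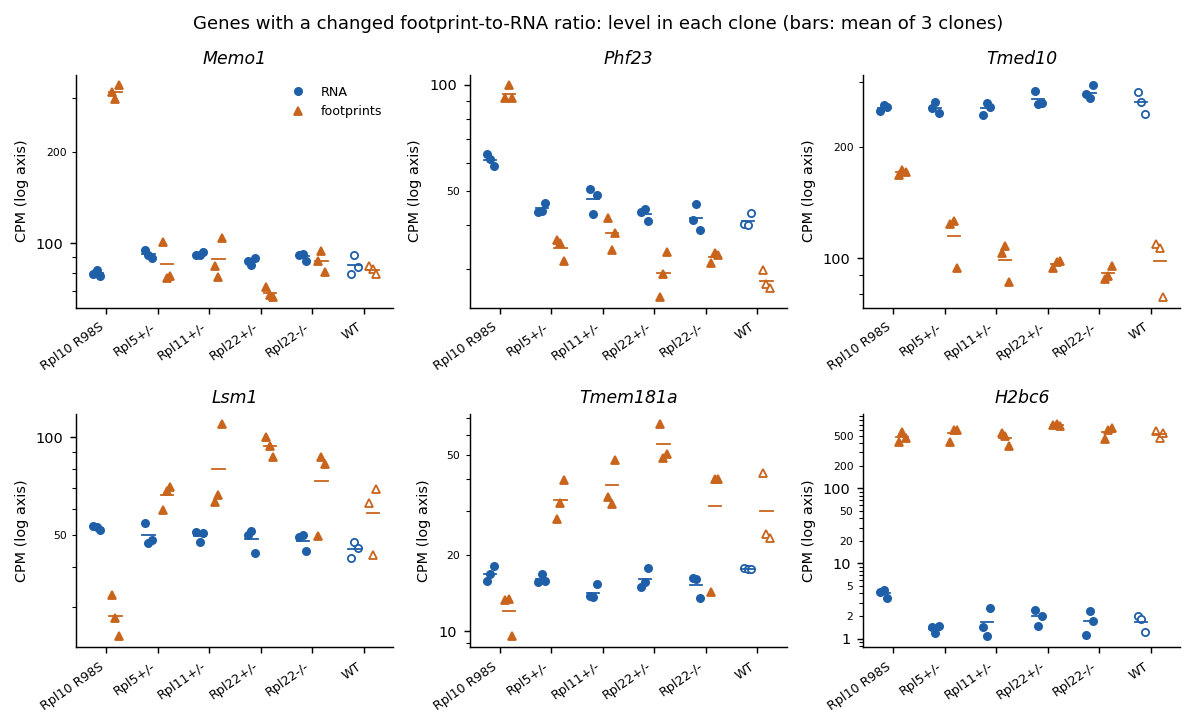
CPM on a log axis of 6 genes with a called difference in footprint-to-RNA ratio, 1 point per clone (circles RNA, triangles footprints, bars the mean of 3 clones), with wild type drawn open as a reference. Memo1 footprints are at 299 to 332 CPM in Rpl10 R98S and at 66.6 to 104 in the loss clones while its RNA lies between 78.1 and 94.9 in both, and Lsm1 footprints show the opposite order.

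Footprints of several large-subunit ribosomal protein genes were higher in Rpl10 R98S. Of the 47 large-subunit genes, 6 were called higher and 3 lower in RNA, 19.1% against 24.7% of all genes, and 9 higher and 2 lower in footprints, 23.4% against 5.28%. Their median log2 difference was 0.00 in RNA and 0.23 in footprints, beside 0.02 for all genes in footprints. The list holds the edited genes Rpl5, Rpl11 and Rpl10, all 3 among the genes called in RNA. Rpl5 and Rpl11, both called higher, were each edited in 1 genotype on the loss side. The Rpl5 call held in 5 of 24 settings, and that of Rpl11 was lost against both Rpl22 genotypes only and with the loss clones as 1 group. The call with the smallest p in RNA was Rpl10a, at 2616 to 2765 CPM against 1752 to 2070 (log2 difference 0.49, SE 0.04, adjusted p 1.43e-06). Its efficiency was lower by a log2 value of -0.77 (SE 0.10, adjusted p 4.98e-05), and both calls held in every setting tried. Rpl12, of the stalk base, was higher in footprints (249 to 333 CPM against 171 to 234, 0.57, SE 0.08, adjusted p 0.00143) and in efficiency (0.66, adjusted p 0.000208). Rpl14 had 307 to 514 CPM of footprints against 117 to 296 (1.11, SE 0.20, adjusted p 0.00622). Without A34 the count of large-subunit genes higher in footprints was 1, and over the other clones left out singly it reached at most 11. The Rpl14 footprint call was also lost without A34, and the count of 6 higher in RNA was 3 without A30 and without A34. The count of 3 lower in RNA was 1 without A29 or A34, and that of 2 lower in footprints was 0 without any 1 of A29, A30, A34, Rpl11+/- 406, Rpl22+/- 16 and Rpl22-/- 776. Among the 33 small-subunit genes, RNA was higher in 0 and lower in 4 (12.1%, against 24.7% of all genes), and the latter count was 22 against Rpl5+/- and Rpl11+/- only, 0 against both Rpl22 genotypes only and 1 without A29. In footprints Rps18 (292 to 389 CPM against a median of 160 and a highest value of 236, 0.92, SE 0.15) was higher and Rps9 lower (-0.40, lost without A30 or A34). Ribosomal protein genes have many processed pseudogenes, to which the counting may have assigned some reads.

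Factors of large-subunit assembly and maturation were called higher in RNA more often than lower, 15 against 2 of 45 (37.8% in all, against 24.7% of all genes), with a median log2 difference of 0.09. Those with the widest difference included Noc3l, a nucleolar factor of early large-subunit maturation, at 56.2 to 63.8 CPM against 30.5 to 42.5 (0.73, SE 0.08, adjusted p 1.23e-05), and Ebna1bp2, at 172 to 192 against 101 to 158 (0.65, SE 0.08). Gnl3, a nucleolar GTPase, was at 145 to 153 CPM against 78.2 to 139 (0.54, SE 0.07) and Bop1, of the PeBoW complex, at 120 to 128 against 75.8 to 108 (0.52, SE 0.07). These 4 were outside the range of the loss clones and were called in every setting. Of the factors that act in the cytoplasm near the step of Rpl10 loading, Efl1, the GTPase that releases eIF6 together with Sbds, was higher (24.0 to 25.2 CPM against 16.2 to 22.6, 0.34, SE 0.07, adjusted p 0.00207), while Sbds was lower (33.3 to 36.5 against 41.2 to 48.4, -0.35, SE 0.05, adjusted p 0.000235). In footprints 3 of 45 were called (6.67%, against 5.28% of all genes): Ebna1bp2 and Mrto4 higher and Senp3 lower. Noc3l footprints were thus not called. In efficiency Ebna1bp2 was called higher and Noc3l and Senp3 lower (6.67%, against 2.18% of all genes). Both lower efficiency calls were lost without A29 and without A34. The RNA count of 15 was 9 without A29, and it was 23 without the 4 loss clones that stood apart.

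Of 48 translation initiation and elongation factors, 13 were called higher and 4 lower in RNA (35.4%, against 24.7%). Eif2b5, the catalytic subunit of the guanine nucleotide exchange factor eIF2B, was at 150 to 157 CPM against 92.0 to 107 (0.59, SE 0.04, adjusted p 1.81e-07), and in footprints at 160 to 168 against 84.3 to 141 (0.58, SE 0.09, adjusted p 0.0036). Eif2b3, another eIF2B subunit, was higher in footprints by 0.67 (SE 0.11, adjusted p 0.00411), and Eif3g, of initiation factor 3, by 0.51 (SE 0.08, adjusted p 0.00357). In the other direction Eif1, which guides start codon selection, was at 845 to 895 CPM of RNA against 902 to 1065 (-0.20, adjusted p 0.00578). Eif1b (-0.51) and Eif4h (-0.34) were lower in footprints, calls that were both lost without A30 or A34. In footprints 4 were higher and 3 lower (14.6%, against 5.28% of all genes). Without A29 the RNA count of 13 was 8, and without A30 or A34 the count of 3 lower in footprints was 0. Of 21 factors of stalled-ribosome rescue and release, 5 were higher and 3 lower in RNA (38.1%) and 0 were called in footprints (5.28% of all genes). Pelo, the rescue factor Pelota, was among the 5 higher in RNA and had a lower efficiency (-0.51, adjusted p 0.0499). Its efficiency call held in 10 of 25 settings and was lost without any 1 of the Rpl10 R98S clones. The count of 5 was 2 without A30, and that of 3 was 1 without A29 or A30.

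Of 17 Bcl2 family genes tested, 6 were lower and 2 higher in RNA (47.1%, against 24.7%), and 4 lower in footprints (23.5%, against 5.28%). The 3 Bcl2a1 copies made up 3 of the 6. Bid, a BH3-only protein, was lower (76.7 to 80.5 CPM against 85.9 to 116, -0.37, SE 0.05, adjusted p 9.24e-05), and the anti-apoptotic Mcl1 was lower in footprints (81.5 to 96.1 CPM against 104 to 150, -0.40, SE 0.07, adjusted p 0.00704, a call lost without A30). Bax, the pore-forming effector, was higher (165 to 189 CPM against 111 to 169, 0.47, SE 0.08, adjusted p 0.00073), as was Bcl2l2 (0.29). The count of lower genes was 3 in RNA without A29 and 2 in footprints without A30. Of 34 genes of the interleukin 3 receptor and JAK-STAT pathway, 6 were higher and 6 lower in RNA (35.3%), and 0 and 2 in footprints (5.88%). The kinase Jak2 was lower (94.5 to 97.2 CPM against 102 to 145, -0.33, SE 0.08, adjusted p 0.00673), as was Stat2 (13.8 to 16.2 against 17.8 to 22.4, -0.45, SE 0.07, adjusted p 0.000407). Il2rg, the common gamma chain of several cytokine receptors, was higher (0.40, SE 0.05, adjusted p 7.09e-05). The 6 higher genes numbered 3 without A30 or A34, the 6 lower genes 3 without A29, and the footprint count of 2 was 0 without A29 or A30.

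Of 28 genes tested from a list of p53 and its targets, 6 were higher in RNA (21.4%, against 24.7%). In footprints 1 of 28, Trp53inp1, was lower (3.57%, against 5.28% of all genes). Ccng1, cyclin G1, was at 317 to 377 CPM against 142 to 411 (0.72, SE 0.19, adjusted p 0.0191), so that at least 1 loss clone was above all Rpl10 R98S clones, and its call was lost without A29 or A30. The count was 2 without A29 and 13 without the 4 loss clones that stood apart. Of 26 ATF4 target genes, 1 was higher and 1 lower in RNA (7.69%), and the latter count became 12 without those 4 clones and 0 without A29 or A30. Of 21 genes of serine, glycine and one-carbon metabolism, 3 were higher in RNA (14.3%), among them Mthfd1 of the folate cycle (0.25) and the glutamine transporter Slc1a5 (0.25). In footprints 2 of 22 were higher (9.09%, against 5.28% of all genes), namely Mthfd1 (0.30) and Mtr (0.28). That footprint count was 0 without any 1 of the Rpl10 R98S clones.

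Of 48 proteasome genes, 14 were higher and 3 lower in RNA (35.4%, against 24.7%), and 6 higher and 2 lower in footprints (16.7%, against 5.28%). Psmg1, an assembly chaperone, was at 53.1 to 56.6 CPM of RNA against 32.5 to 39.9 (0.58, SE 0.06, adjusted p 7.33e-06) and at 88.5 to 100 of footprints against 52.5 to 70.6 (0.73, SE 0.10, adjusted p 0.00101). Psmb10, a catalytic subunit of the immunoproteasome, was higher in RNA by 0.58 (SE 0.09, adjusted p 0.000419). Psmd3 of the regulatory lid was higher in RNA (0.38) and footprints (0.46), and Adrm1, a ubiquitin receptor of the proteasome, was lower in footprints (21.2 to 28.1 CPM against 28.4 to 55.1, -0.79, SE 0.16, adjusted p 0.0115). The footprint calls of Psmd3 and Adrm1 were lost without A34, and that of Adrm1 also without A29. The counts of higher genes were 9 in RNA without A29 and 1 in footprints without A34, and those of lower genes 0 in RNA without A30 and 0 in footprints without A29 or A34. Of 28 genes of antigen presentation and interferon response, 3 were higher and 1 lower in RNA (14.3%), and in footprints 2 of 29 were higher (6.9%): H2-K1, a class I heavy chain (0.45, lost without any 1 of the Rpl10 R98S clones), and Ifi35, an interferon-induced protein (0.79). Of 41 antioxidant and peroxisome genes, 10 were higher and 2 lower in RNA (29.3%), a count of higher genes that became 2 without A30. Gpx1, glutathione peroxidase 1, was lower, at 249 to 279 CPM against 339 to 477 (-0.59, SE 0.07, adjusted p 5.74e-05). Prdx3, the mitochondrial peroxiredoxin, was higher in footprints, at 380 to 447 CPM against 212 to 325 (0.64, SE 0.09, adjusted p 0.00168), where 5 of 42 were called (11.9%), of which 4 were higher, 1 without A30.

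**Figure D5:**
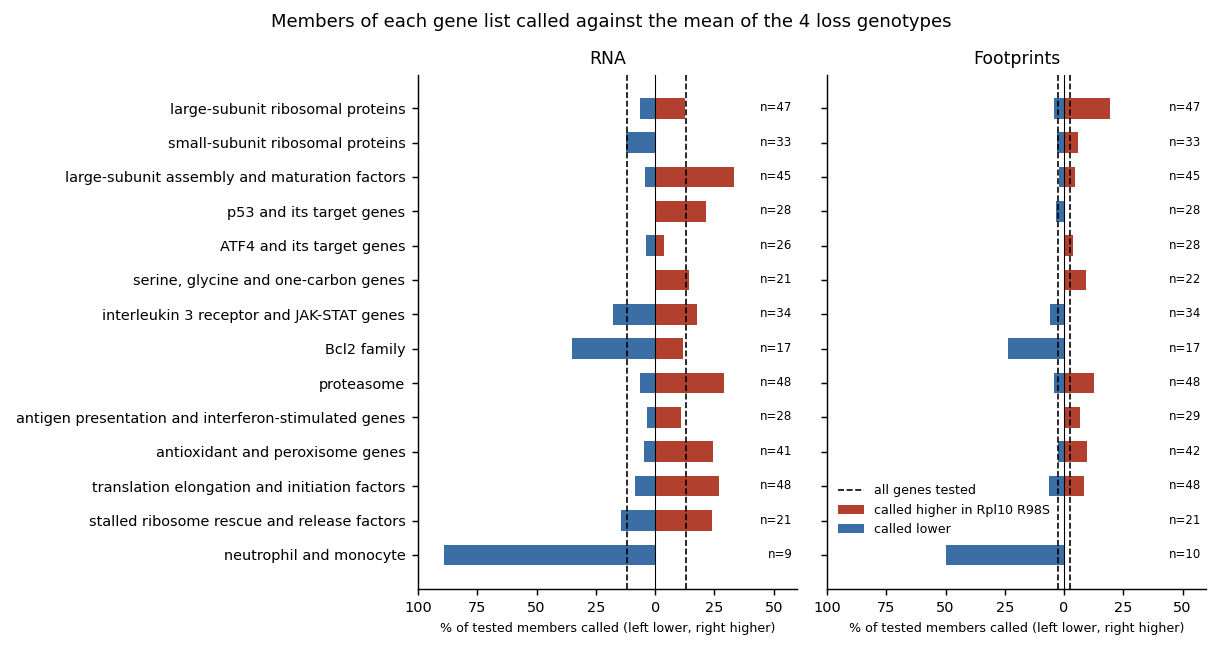
Share of the tested members of each gene list called lower (left, blue) or higher (right, red) in Rpl10 R98S than the mean of the 4 loss genotypes, in RNA and in footprints, with the number tested at the right and dashed lines at the shares of all genes. In RNA the bars for neutrophil and monocyte markers (8 of 9 lower) reach farthest beyond the lines, and in footprints the right bar for large-subunit ribosomal proteins (9 of 47) reaches beyond the line on the higher side. The count of 8 was 2 without any 1 of the Rpl10 R98S clones. Some of those markers passed the filter on low counts through the loss clones and could hardly be called higher.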

How the data were processed

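RNA and ribosome footprints were measured in the same clones. The values are estimated counts per gene for 55487 genes, as deposited by the authors, not normalized, and 25.67% of RNA and 43.11% of footprint values above 0 are not whole. The submitters' processing notes name STAR 2.6.1d, Salmon 1.4.0, DESeq2 1.30 and the build GRCm38, with no role or order. How reads shared by near-identical genes were assigned is not given in the sources used here. Symbols were those deposited with the counts for 32115 genes, and came from a reference of gene names for 23112 more. Positions and promoter windows come from RefSeq on GRCm38.p6.

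Counts were rounded and tested with edgeR 4.0.16 (R 4.3.3): quasi-likelihood fits with robust dispersion, TMM scaling within an assay, filterByExpr, 15 clones in 5 genotype means, and Benjamini-Hochberg adjustment at 0.05 over all genes tested. The contrast was Rpl10 R98S minus the equally weighted mean of 4 loss genotypes, and then minus each one. For translational efficiency the genotype difference in footprints minus that in RNA was fitted over 30 libraries at once. An SE is the log2 difference divided by the root of the F statistic. CPM per clone used TMM over all 24 libraries of an assay, with a prior count of 0.5 for log values. A fitted difference weights counts, so it can depart from a ratio of CPM. The fits were tested on simulated counts with known changes, the same dispersion for all genes and no link between the libraries of a clone. Such counts do not show how the fits behave for genes that spread as widely between clones as Ngp.

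Genes were named where the adjusted p was under 0.05, the mean was at least 2 CPM, the symbol was not that of a predicted gene or pseudogene, and the 3 Rpl10 R98S clones lay outside the 12 loss clones: the widest 12 in RNA, 10 in footprints and 8 in efficiency per direction, plus the edited genes and called members of 14 gene lists and 5 marker lists. The members and lists were chosen with earlier results of these data known. The labels tie the RNA and footprint library of a clone to 1 lysate. Over 7137 genes the deviations of the 2 libraries from their genotype means correlated at 0.21 to 0.689 within a clone and at -0.608 to -0.019 with another clone of the genotype. Deviations cancel within a genotype, which by itself pulls the values with other clones to the negative side. Alternatives were limma 3.58.1 (voom), DESeq2 1.42.0, its size factors, no filter, other sets of clones, the clone as a block, and each clone left out. Python 3.11.15 with pandas 2.3.3, NumPy 2.4.6, matplotlib 3.10.9 and Biopython 1.88 served for summaries, alignment and plots. A few genes that the naming rule or the lists hold are not reported here.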

Additional observations from a re-analysis of the deposited data

How the results depend on the processing

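With the 12 loss clones as 1 group, so that the spread between loss genotypes entered the error, 2006 RNA genes, 517 footprint genes and 117 efficiency genes were called, against 3091, 812 and 256. DESeq2 called 1557 in footprints and 465 in efficiency, and without a filter on low counts 1845 were called in footprints. Against Rpl5+/- and Rpl11+/- only, the counts were 453 in footprints and 110 in efficiency, and there the difference of Rpl22 RNA turned to -0.25. With all 24 clones in the fit the RNA counts against Rpl5+/-, Rpl11+/-, Rpl22+/- and Rpl22-/- were 1486, 1220, 1649 and 1603. With only the 2 genotypes compared in the fit, RNA counts were 3732 (Rpl5+/-) and 896 (Rpl11+/-), footprint counts 40 (Rpl11+/-), 453 (Rpl22+/-) and 1477 (Rpl22-/-), and efficiency counts 30 (Rpl11+/-) and 706 (Rpl22-/-). The cause of these shifts was not tested.

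Leaving out 1 clone gave 1663 to 3593 RNA genes against the mean of the 4 genotypes, and 1219 to 1597, 1033 to 2489, 1503 to 1961 and 1398 to 1816 against Rpl5+/-, Rpl11+/-, Rpl22+/- and Rpl22-/-. In footprints the ranges were 291 to 1032, 71 to 162, 38 to 185, 234 to 876 and 252 to 376, and in efficiency 95 to 381, 17 to 70, 22 to 52, 92 to 490 and 81 to 176. Of the genes picked by the naming rule, 15 of 24 in RNA, 12 of 20 in footprints and 12 of 16 in efficiency kept their call in each fit without 1 clone, and 15, 9 and 10 did under the other settings, and 0 changed sign. With the clone as a replicate block 335 efficiency genes were called, and 80, 55, 312 and 349 against the 4 genotypes. The fit without the 4 loss clones that stood apart was chosen after seeing the data.

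Depth limits the genes near 0 in Rpl10 R98S, such as Clec12a and Thbs1, where a few counts set the size of the difference. Counts per gene do not tell where on a transcript the footprints lay.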

Other observations

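A small group of genes was called in opposite directions in RNA and footprints. Of the 465 genes called at both levels, 18 had opposite signs, and those named here were chosen after their values were seen. Footprints were lower and RNA higher in 13 of them. Cul3, the scaffold of a family of ubiquitin ligases, was at 157 to 169 CPM of RNA in Rpl10 R98S against 119 to 147 in the loss clones (log2 difference 0.27), and at 52.7 to 54.0 CPM of footprints against 62.9 to 118 (-0.70), with efficiency lower by a log2 value of -0.97 (adjusted p 3.48e-05 by edgeR). Ifnar1, a chain of the type I interferon receptor, was at 39.2 to 40.4 CPM of RNA against at most 35.9 and at 4.84 to 6.73 CPM of footprints against 8.29 to 16.9, so that the groups did not overlap at either level. Its efficiency was lower by a log2 value of -1.18 (adjusted p 0.000691). Vps41, of the complex that tethers vesicles to lysosomes, had 0.18 in RNA and -0.69 in footprints, and Phf20, a histone-mark reader, 0.36 and -0.40.

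In the remaining 5 genes footprints were higher and RNA lower, Memo1 among them. Arpc2, a subunit of the actin-nucleating Arp2/3 complex, was at 720 to 730 CPM of RNA against 746 to 853 (-0.13) and at 513 to 546 CPM of footprints against 265 to 494 (0.68), with efficiency higher by 0.83 (adjusted p 9.82e-06 by edgeR). Slc38a1, a transporter of glutamine, had -0.17 in RNA and 0.48 in footprints. Chmp5, of the ESCRT-III machinery, had -0.30 and 0.34, and Ppp2r2a, a regulatory subunit of protein phosphatase 2A, -0.15 and 0.34.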
